A study of Homo sapiens with 12 samples.

Results

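The genes described here are 9 named genes of the osteoblast lineage, followed by RNA-seq in 143B, a human osteosarcoma cell line, across 12 libraries. They were listed by symbol, by a rule that sets no threshold on a measured value, though with earlier results of these data known: RUNX2, SP7, DLX3, DLX5 and MSX2 encode transcription factors, BMP2 a secreted ligand, ALPL an enzyme, and SPP1 and IBSP matrix proteins. Of the 9 symbols, 8 were matched among the 24180 symbols of the count tables, and IBSP was not analysed here. Of these 8 genes, 7 passed the filter on low counts and were tested, and SP7 was not.

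The study has 4 groups of 3 libraries: BSG, M-BSG, M-BSG-Hot and NC, the control. The sample titles tie M-BSG to a material called 5-MNP-BSG and M-BSG-Hot to 5-MNP-BSG (+), and borosilicate bioactive glass and moderate heating by a magnetic field are the subjects of the series by its title. One treatment text, with 5-MNP-BSG and an alternating magnetic field (20A; 500H), stands on all 12 samples, NC included, so the labels give neither dose, exposure time nor field for a single group. All groups share the genotype label WT, DMEM with 10% fetal bovine serum, and 37 degrees with 5% CO2. Separate cultures are not stated for the libraries within a group, so p-values measure only the spread between these libraries, which may be technical, and all cells are of 1 line.

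Osteoblasts arise from mesenchymal precursors under the control of RUNX2, which switches on bone genes together with its partner CBFB, and of SP7 (osterix), which acts after it. DLX3 and DLX5 are homeodomain factors that activate bone genes, and MSX2 is a related homeodomain factor that can oppose DLX factors. BMP2 signals through receptor kinases and SMAD proteins and can start bone formation. ALPL splits pyrophosphate, an inhibitor of mineral, and SPP1 (osteopontin) and IBSP (bone sialoprotein) are phosphoproteins of the bone matrix. Osteosarcoma is a tumour that makes bone matrix, and its cell lines hold parts of this programme.

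The promoters of RUNX2 and SPP1 are shown because RUNX2 is the factor on which the lineage depends, its gene has 2 starts whose transcripts the counts do not separate, and SPP1 is a known RUNX2 target. RefSeq windows of 300 bases (build GRCh38.p14, from 250 bases before to 50 after a start) matched 4 of the 8 genes, with 7 windows in all. Capitals mark the RUNX motif TGTGGT, searched on both strands, so that ACCACA is the motif on the opposite strand. The upstream RUNX2 window is chr6:45328080-45328379, the downstream one chr6:45422025-45422324 and that of SPP1 chr4:87975464-87975763, all on the plus strand.
RUNX2 upstream start: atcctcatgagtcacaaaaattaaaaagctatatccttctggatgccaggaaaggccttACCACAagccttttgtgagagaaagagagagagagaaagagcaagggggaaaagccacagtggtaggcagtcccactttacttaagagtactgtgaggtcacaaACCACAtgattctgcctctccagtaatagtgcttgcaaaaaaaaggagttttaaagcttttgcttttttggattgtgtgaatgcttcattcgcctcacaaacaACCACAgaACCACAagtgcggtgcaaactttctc
RUNX2 downstream start: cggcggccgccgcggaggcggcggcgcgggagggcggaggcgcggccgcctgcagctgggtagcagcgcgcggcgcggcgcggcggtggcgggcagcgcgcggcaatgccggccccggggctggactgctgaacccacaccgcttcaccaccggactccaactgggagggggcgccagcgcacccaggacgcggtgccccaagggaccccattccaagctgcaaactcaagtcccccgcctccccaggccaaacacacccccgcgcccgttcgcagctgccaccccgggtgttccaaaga
SPP1: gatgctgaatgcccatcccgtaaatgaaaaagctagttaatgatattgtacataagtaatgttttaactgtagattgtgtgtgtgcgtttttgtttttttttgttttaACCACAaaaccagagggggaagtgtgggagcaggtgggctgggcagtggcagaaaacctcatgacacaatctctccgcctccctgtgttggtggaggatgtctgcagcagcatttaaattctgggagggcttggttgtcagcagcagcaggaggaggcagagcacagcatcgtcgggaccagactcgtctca
The upstream RUNX2 window held 4 RUNX motifs, the downstream one 0 and the SPP1 window 1, while 13.1% of all 35116 promoter windows held at least 1. The upstream RUNX2 window also held 1 AP-1 motif (TGANTCA), a motif found in 7.71% of all windows. The window of MSX2 held 1 homeodomain motif (TAATTA, 4.84% of all windows). The downstream RUNX2 window had 76.0% G and C, against 42.7% in the upstream one. These matches are descriptions of sequence, and the data measure no binding.

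Total counts ranged from 34434993 to 38163152 per library, and the counts behind single genes of the group are lowest for SP7, DLX3 and ALPL. BSG 1, M-BSG 1 and M-BSG-Hot 3 had the highest share of ribosomal protein counts of their groups (11.3%, 9.95% and 9.86%, against 7.55% to 9.18% in the other 9 libraries), and the main DLX3, RUNX2 and BMP2 values are given with and without these 3. Of the line's osteoblast markers, SPARC stood at 91.9 to 113 FPKM, CDH11 at 6.93 to 11.2 FPKM and COL1A1 at 0.868 to 1.56 FPKM. BGLAP (osteocalcin), a late osteoblast product, averaged 0.0722 FPKM over the 12 libraries, and COL1A2 was not analysed here. FPKM is the authors' count scaled to gene length and library total, and levels of different genes are compared on this scale only.

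SPP1 had the highest level per length of the group, with a mean of 7.02 FPKM over 12 libraries, followed by MSX2 at 3.79, BMP2 at 3.07, RUNX2 at 2.44, DLX5 at 1.83, ALPL at 0.898 and DLX3 at 0.314 FPKM. The 12 libraries of SPP1 (5.89 to 8.04 FPKM) lay above all those of MSX2 (2.89 to 4.61 FPKM). MSX2, BMP2 (2.48 to 3.91 FPKM), RUNX2 (1.67 to 2.88 FPKM) and DLX5 (1.58 to 2.36 FPKM) overlapped as neighbours. ALPL (0.646 to 1.24 FPKM) lay below all libraries of DLX5 and above all those of DLX3 (0.0827 to 0.602 FPKM). The order thus separated the matrix protein SPP1, a middle block of regulators, ALPL and DLX3.

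**Figure D1:**
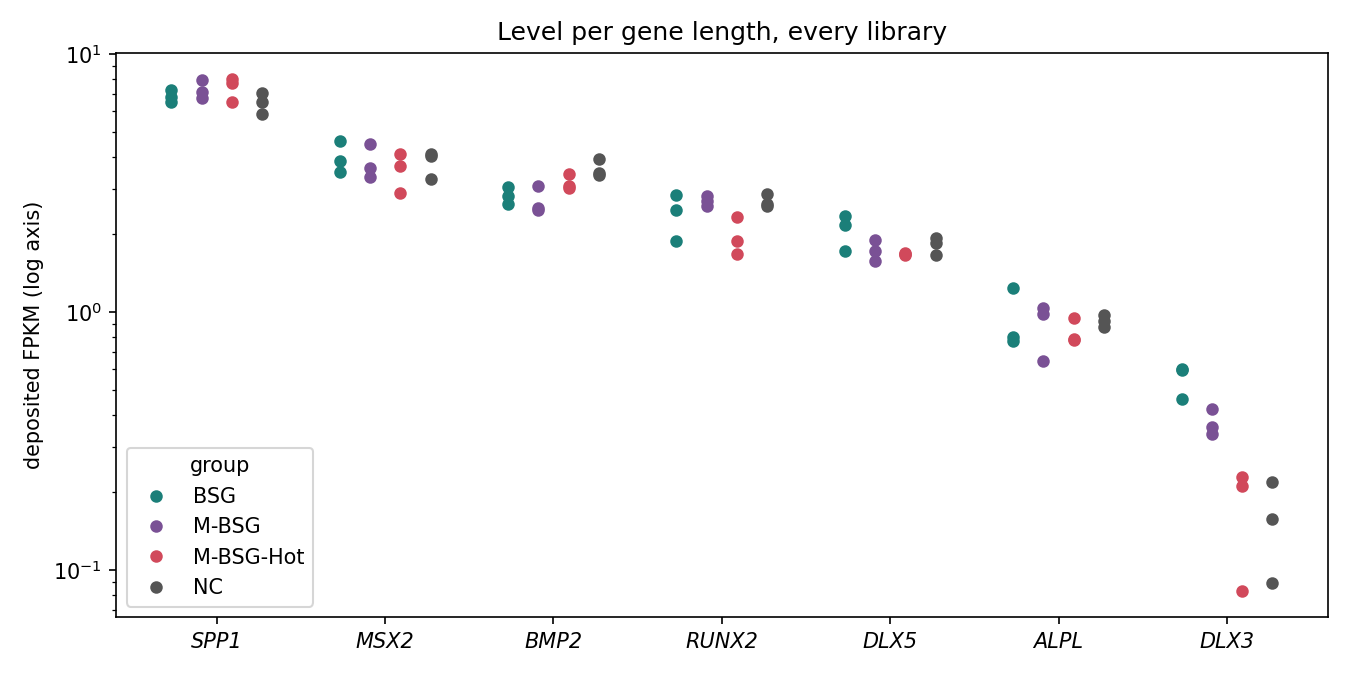
Deposited FPKM (log axis) of the 7 tested genes in each of the 12 libraries, coloured by group, with 3 points per group. SPP1 lies above the other genes in every library, DLX3 lies lowest, and DLX3 is the gene whose groups spread most, from 0.0827 to 0.602 FPKM.

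Across the groups 1 of the 7 tested genes, DLX3, was called, that is had an adjusted p under 0.05, for any difference among the 4 groups (edgeR's quasi-likelihood test over 3 contrasts, Benjamini-Hochberg adjusted p = 0.0101), where 7.52% of all 15407 genes tested were called. RUNX2 had an adjusted p of 0.166, BMP2 of 0.194, DLX5 of 0.339, SPP1 of 0.398, MSX2 of 0.812 and ALPL of 0.930 in the same test. The ratio of the highest to the lowest group mean was 3.77 for DLX3, and between 1.13 (ALPL and MSX2) and 1.37 (RUNX2) for the other 6. Values by library are given in CPM, counts scaled to the library total with edgeR's TMM correction for composition. In bulk RNA, a change in the share of cells that express a gene and a change in its RNA per cell cannot be told apart.

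**Figure D2:**
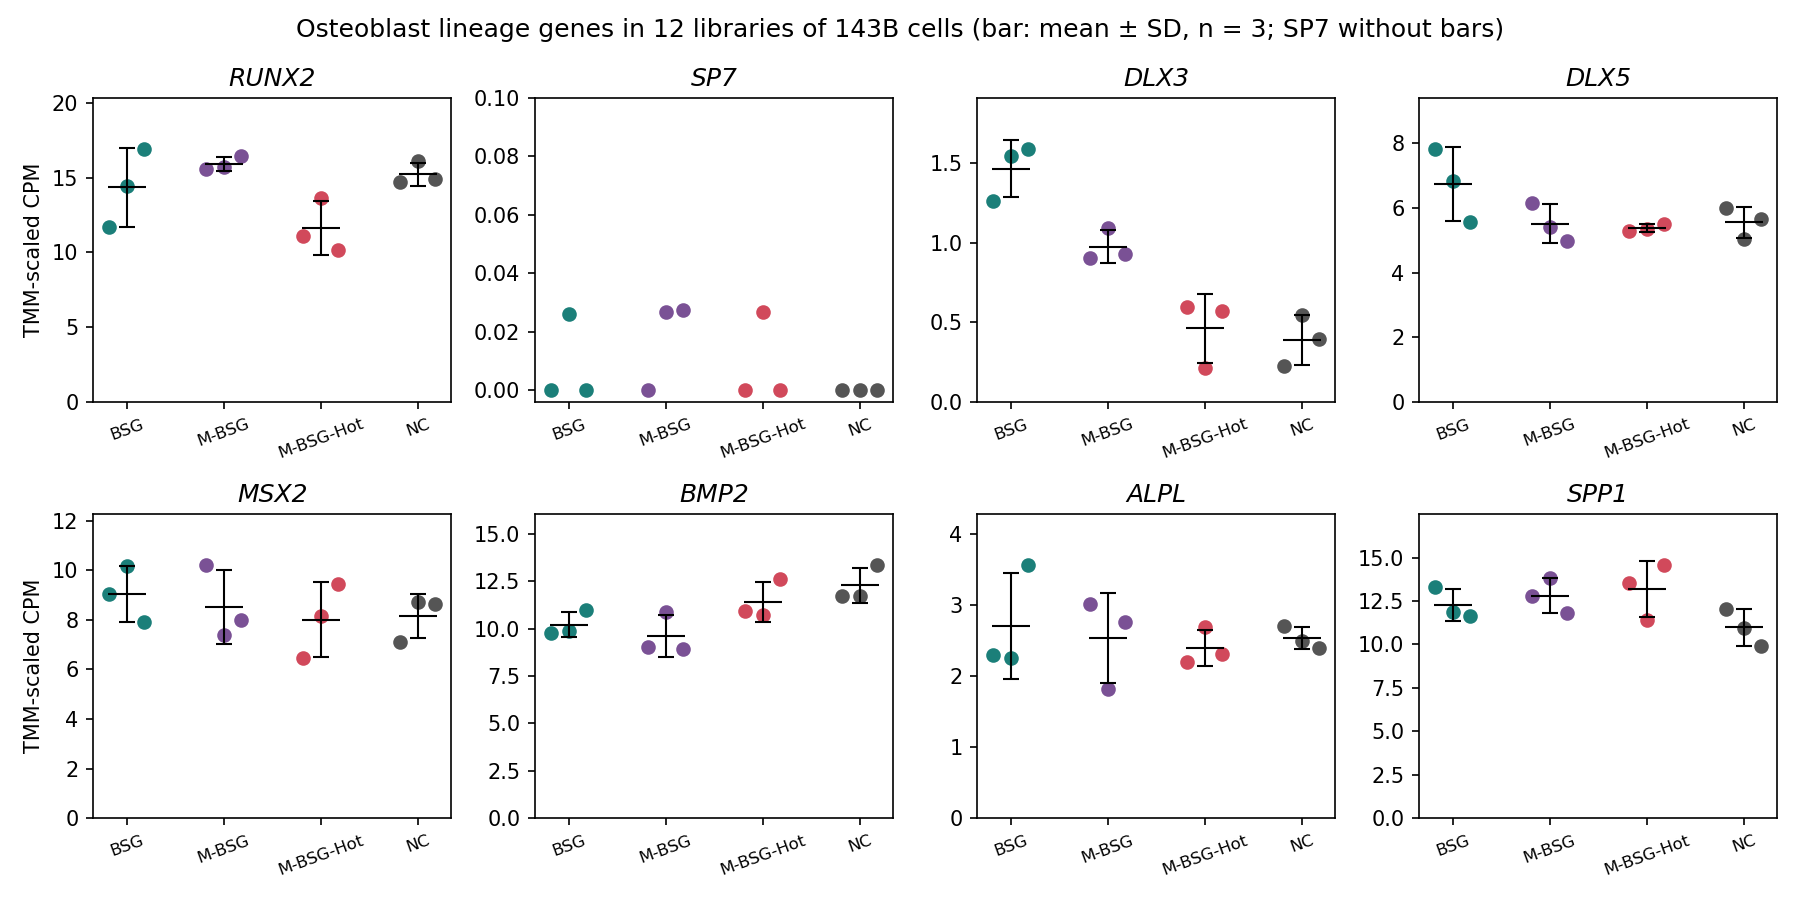
TMM-scaled CPM of the 8 genes in every library (points) with the group mean and SD (bars, n = 3, none for SP7), each gene on its own linear axis. DLX3 steps down from BSG (1.46 CPM) over M-BSG (0.974) to M-BSG-Hot (0.461) and NC (0.389), while the groups of DLX5, MSX2, ALPL and SPP1 lie close together.

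DLX3, a homeodomain factor of osteoblasts, placenta, skin and teeth, rose in BSG. It had 1.26, 1.54 and 1.59 CPM in the BSG libraries, 0.904, 1.09 and 0.927 CPM in M-BSG, 0.598, 0.215 and 0.570 CPM in M-BSG-Hot, and 0.227, 0.545 and 0.394 CPM in NC. Every BSG library lay above every M-BSG library, every M-BSG library above every M-BSG-Hot and NC library, and M-BSG-Hot and NC overlapped. The counts behind these values were low, from 8 to 59 per library, with at least 10 in 10 of the 12 libraries.

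The fitted log2 fold change of DLX3 in BSG against NC was 1.90 (SE 0.376, 95% interval 1.09 to 2.70, edgeR quasi-likelihood adjusted p = 0.00509), a 3.72-fold rise. It kept its call in all 20 alternatives that could test it (other tools, scalings, filters and sets of libraries), with adjusted p from 1.61e-05 to 0.0268; without BSG 1, M-BSG 1 and M-BSG-Hot 3 it was 1.98 (adjusted p = 0.00332). Against NC the fold change in M-BSG was 1.31 (SE 0.384, interval 0.48 to 2.13, adjusted p = 0.0619), which edgeR did not call and DESeq2 did (adjusted p = 0.0104). Without M-BSG-Hot 2, a library of neither group, edgeR called it as well (adjusted p = 0.0315). In M-BSG-Hot it was 0.23 (SE 0.411, interval -0.65 to 1.12, adjusted p = 0.821).

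Between the treated groups the DLX3 fold change was -1.66 in M-BSG-Hot against BSG (SE 0.370, interval -2.46 to -0.87, adjusted p = 0.0562). It was called lower by DESeq2 (adjusted p = 0.000929), with no count filter (0.0254) and without BSG 1, M-BSG 1 and M-BSG-Hot 3 (0.0482). Over all alternatives the adjusted p ran from 0.000929 to 0.172. DESeq2 called 295 genes lower in this comparison, where edgeR called 116. In M-BSG-Hot against M-BSG the DLX3 fold change was -1.08 (SE 0.377, interval -1.89 to -0.27, adjusted p = 0.350), and in M-BSG against BSG -0.59 (SE 0.343, interval -1.32 to 0.15, adjusted p = 0.635). In both comparisons the libraries did not overlap, and neither passed the test.

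Among the genes whose log2 CPM followed DLX3 most closely over the 12 libraries, out of 12995 compared, were PHTF1 (Pearson r = 0.919, Spearman rho = 0.923) and EGR3 (0.894 and 0.846). The 12 points share the 4 groups, and the values are a description. EGR3, a growth-factor-induced transcription factor, averaged 10.5 CPM in BSG, 9.16 in M-BSG, 5.30 in M-BSG-Hot and 4.14 in NC. PHTF1 spanned 66.0 CPM in BSG to 60.7 in NC, a much narrower range than that of DLX3.

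CD14, a monocyte marker among the lists of other cell types, took the same order as DLX3 and is given beside it. It averaged 1.80 CPM in BSG, 1.13 in M-BSG, 0.613 in M-BSG-Hot and 0.539 in NC, and was higher against NC in BSG by 1.74 (adjusted p = 0.00124) and in M-BSG by 1.07 (adjusted p = 0.0420) on the log2 scale. The call in M-BSG was lost in 13 of 21 alternatives. Of the other immune markers listed, PTPRC and CD3E were not analysed here. The part of CD14 in the DLX3 result was not tested.

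DLX5, a second DLX factor of bone, had 7.84, 6.82 and 5.56 CPM in BSG, 6.16, 5.41 and 4.96 CPM in M-BSG, 5.27, 5.34 and 5.51 CPM in M-BSG-Hot, and 5.98, 5.04 and 5.65 CPM in NC. BSG 1 and BSG 2 were the 2 highest of the 12, and BSG 3 lay within the NC range. The log2 fold change was 0.28 in BSG (interval -0.03 to 0.58, adjusted p = 0.202), -0.01 in M-BSG (interval -0.32 to 0.30, adjusted p = 0.983) and -0.05 in M-BSG-Hot (interval -0.36 to 0.26, adjusted p = 0.905) against NC by edgeR. In M-BSG-Hot against BSG the libraries lay below without overlap, at a log2 fold change of -0.33 (interval -0.63 to -0.02, unadjusted p = 0.0389, adjusted p = 0.336).

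MSX2 had 9.04, 10.2 and 7.90 CPM in BSG, 10.2, 7.38 and 7.99 CPM in M-BSG, 6.44, 8.16 and 9.42 CPM in M-BSG-Hot, and 7.12, 8.70 and 8.62 CPM in NC. The 4 groups overlapped throughout, and no comparison reached an adjusted p below 0.561 by edgeR. Its log2 fold changes against NC were 0.15 in BSG (interval -0.20 to 0.50), 0.06 in M-BSG (-0.29 to 0.42) and -0.03 in M-BSG-Hot (-0.38 to 0.33).

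Among the relatives of these factors DLX2 rose in BSG, to 15.9 CPM against 8.45 CPM in NC, a log2 fold change of 0.91 (SE 0.132, edgeR adjusted p = 0.000516) that held in all 21 alternatives. In M-BSG it was 0.41 (adjusted p = 0.0941) and in M-BSG-Hot 0.47 (adjusted p = 0.0600). The DLX2 libraries of M-BSG (mean 11.2 CPM) and M-BSG-Hot (mean 11.7 CPM) overlapped, so the order of these groups is not resolved (edgeR adjusted p = 0.951). DLX1, DLX4 and DLX6 had log2 fold changes of 0.03, -0.08 and 0.03 in BSG, with adjusted p of 0.817, 0.779 and 0.930. MSX1 was at 89.4 CPM in BSG against 67.7 CPM in NC (log2 fold change 0.40, adjusted p = 0.0905) and was not called. Of the 6 DLX genes measured, DLX2 and DLX3 were thus the ones called in BSG, and no test of the difference between DLX genes was made.

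**Figure D3:**
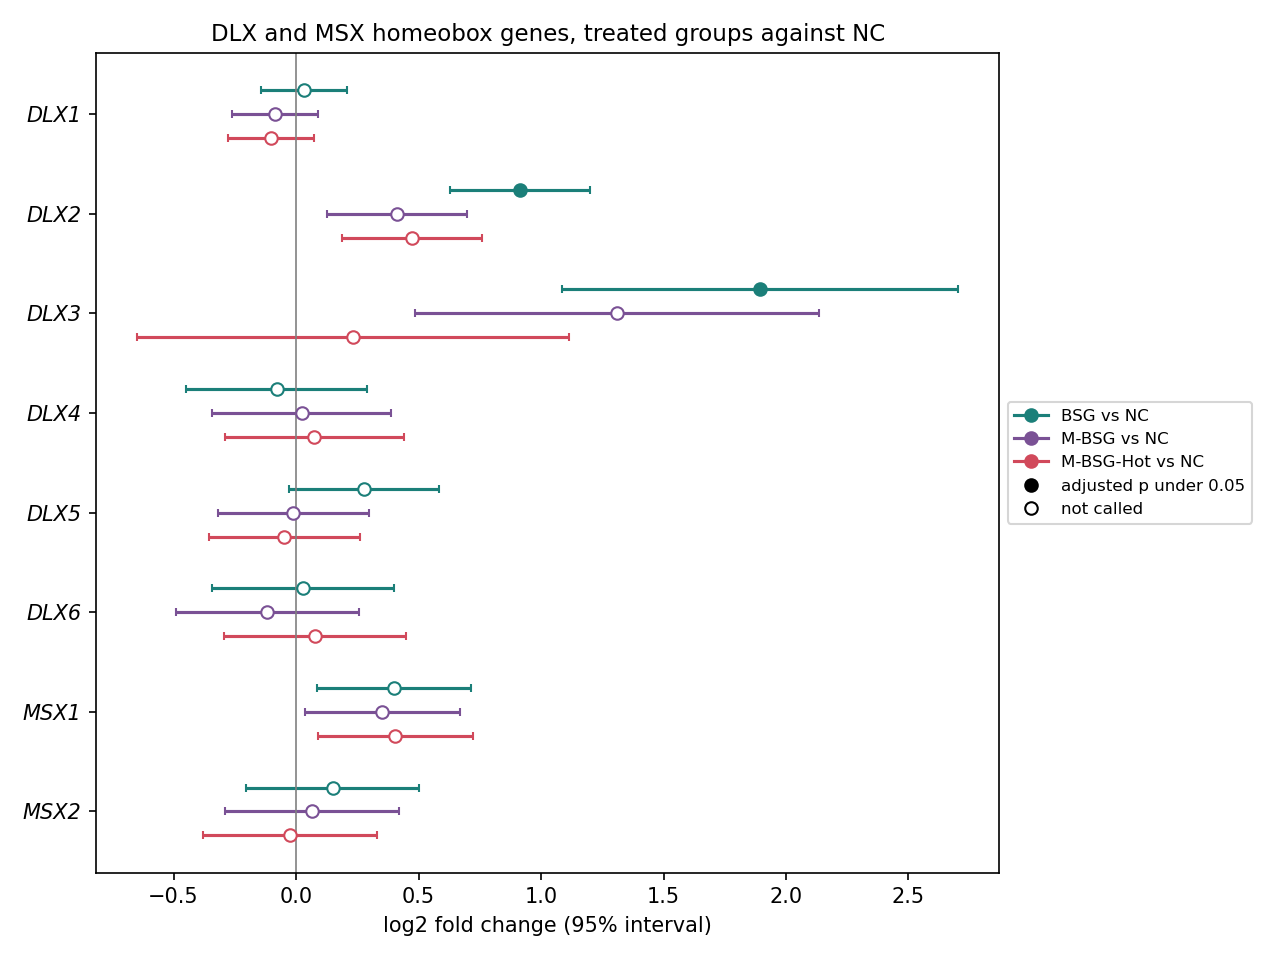
Log2 fold changes against NC with 95% intervals for 8 DLX and MSX genes, in BSG, M-BSG and M-BSG-Hot; filled points are called by edgeR. DLX2 (0.91) and DLX3 (1.90) are the filled points, both in BSG, and DLX3, whose counts are low, has the widest intervals.

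RUNX2 was lowest in M-BSG-Hot, without passing the test. It had 11.7, 14.5 and 16.9 CPM in BSG, 15.6, 15.7 and 16.4 CPM in M-BSG, 11.1, 13.7 and 10.2 CPM in M-BSG-Hot, and 14.7, 16.1 and 14.9 CPM in NC. The 3 M-BSG-Hot libraries lay below all NC and all M-BSG libraries, while BSG spanned both. M-BSG was tight (SD 0.459 CPM on a mean of 15.9) and BSG wide (SD 2.63 CPM on 14.4).

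The RUNX2 log2 fold change was -0.39 in M-BSG-Hot against NC (SE 0.136, interval -0.68 to -0.10, unadjusted p = 0.0131, adjusted p = 0.143 by edgeR). Against M-BSG it was -0.45 (SE 0.136, interval -0.74 to -0.16, adjusted p = 0.239) and against BSG -0.30 (SE 0.136, adjusted p = 0.348). No alternative called the comparison with NC, with adjusted p from 0.0672 to 0.409. The lowest RUNX2 libraries of BSG and M-BSG-Hot were BSG 1 and M-BSG-Hot 3, which have the highest ribosomal protein shares; the fold change in M-BSG-Hot against NC was -0.30 (adjusted p = 0.114) without these libraries and M-BSG 1. In BSG and M-BSG the RUNX2 fold changes against NC were -0.08 (interval -0.37 to 0.20, adjusted p = 0.695) and 0.06 (-0.23 to 0.35, adjusted p = 0.878).

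The other RUNX genes and the RUNX partner were measured at higher levels per length: RUNX3 averaged 9.62 FPKM, RUNX1 6.64 and CBFB 31.8 FPKM over the 12 libraries. None of them was called in BSG against NC, with log2 fold changes of 0.05, 0.01 and 0.12. In M-BSG-Hot against NC none was called either, at 0.18, 0.04 and 0.03. The RUNX3 value there had an interval of 0.04 to 0.32 (edgeR unadjusted p = 0.0161, adjusted p = 0.163). Its M-BSG-Hot libraries lay above all NC libraries, as those of 13.5% of all genes did, while those of RUNX2 lay below. SP7, which acts after RUNX2, had 1 count in BSG 2, M-BSG 2, M-BSG 3 and M-BSG-Hot 2 and 0 in the other 8 libraries. A count of 0 allows up to 3 counts, or 0.0779 to 0.0851 CPM by library, for counting error only, so SP7 was at or below the detectable level in every group and no fold change is given.

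TWIST1, a factor that can hold back RUNX2, rose in BSG and M-BSG. It averaged 16.5 ± 0.873 CPM in BSG, 13.5 ± 0.536 in M-BSG, 11.4 ± 0.860 in M-BSG-Hot and 9.81 ± 0.485 in NC (SD, n = 3 each), a log2 fold change of 0.75 in BSG (edgeR adjusted p = 0.000181) and 0.46 in M-BSG (adjusted p = 0.00990; the call was lost without NC 2). In M-BSG-Hot against NC it was 0.21 (adjusted p = 0.281), and against BSG it was -0.53 (adjusted p = 0.0152), a call lost in 6 of 21 alternatives, 5 of them without 1 library of either group. FOXC1, a forkhead factor of skull development, rose by 0.80 in BSG (adjusted p = 0.000121) and 0.65 in M-BSG (adjusted p = 0.000989). In M-BSG-Hot FOXC1 was at 0.35 against NC (adjusted p = 0.0648) and at -0.46 against BSG (adjusted p = 0.0443), the last a call lost in 14 of 21 alternatives.

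Of the 20 other bone transcription factors listed, all tested, 5 were higher and 2 lower in BSG, where 5.5% of all genes were called higher and 6.22% lower. The higher ones were FOXC1, TWIST1, DLX2, ATF4 at 0.58 and HEY1 at 0.50. The HEY1 call was lost without BSG 3, NC 2 or NC 3. ALX4 and FOSL2 were lower, at -0.40 and -0.50. Both calls were lost without BSG 1 or any 1 of the 3 NC libraries. That of ALX4 was also lost with only the 2 groups compared, and that of FOSL2 without BSG 3, M-BSG 3 or M-BSG-Hot 2. In M-BSG 3 were higher (FOXC1, TWIST1 and ATF4, the last a call lost without M-BSG 1, M-BSG 3 or any 1 NC library) and 0 lower, with 3.22% and 3.13% of all genes called, and in M-BSG-Hot 0 were called, with 1.4% and 3.51%. Over the 21 alternatives the list's count higher ranged from 4 to 6 in BSG, from 1 to 6 in M-BSG and from 0 to 3 in M-BSG-Hot. In M-BSG-Hot 5 of the 21 alternatives called at least 1 gene of the list higher. The list's median log2 fold change was 0.04 in BSG, 0.13 in M-BSG and 0.09 in M-BSG-Hot, against -0.02, -0.01 and 0.00 over all genes.

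BMP2 was the one ligand of the group, and its levels were lower in BSG and M-BSG than in NC without passing the test. It had 9.77, 9.88 and 11.0 CPM in BSG, 9.04, 10.9 and 8.92 CPM in M-BSG, 10.9, 10.7 and 12.6 CPM in M-BSG-Hot, and 11.7, 11.7 and 13.4 CPM in NC. The BSG and M-BSG libraries lay below all NC libraries, and M-BSG-Hot overlapped NC. The log2 fold change was -0.27 in BSG (SE 0.115, interval -0.51 to -0.02, unadjusted p = 0.0365, adjusted p = 0.136) and -0.35 in M-BSG (SE 0.115, interval -0.60 to -0.10, unadjusted p = 0.00872, adjusted p = 0.0981) by edgeR. The M-BSG value was -0.31 (adjusted p = 0.103) without BSG 1, M-BSG 1 and M-BSG-Hot 3. With scaling by library size only it was -0.41 and was called (adjusted p = 0.0494). In M-BSG-Hot it was -0.10 (interval -0.35 to 0.14, adjusted p = 0.689).

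The other BMP ligands were not called against NC either: BMP4, BMP6 and BMP7 had log2 fold changes of -0.11, 0.09 and -0.07 in BSG, and BMP4 stood at -0.47 in M-BSG (adjusted p = 0.107). Of 32 listed genes of the BMP pathway 28 were tested, and 5 were higher and 1 lower in BSG, 4 higher and 0 lower in M-BSG, and 3 higher and 0 lower in M-BSG-Hot. With the replicate number as a block 2 were lower in BSG. As a background, edgeR called 5.5% of all tested genes higher in BSG against NC, with 6.22% lower. The matching shares against NC were 3.22% higher with 3.13% lower for M-BSG, then 1.4% with 3.51% for M-BSG-Hot. The list's medians, 0.01, 0.03 and 0.06, stayed near those of all genes. ID2, an inhibitor of differentiation factors, averaged 43.5 CPM in BSG, 19.8 in M-BSG, 39.1 in M-BSG-Hot and 1.42 in NC. Its relative ID4 averaged 5.75, 3.22, 4.24 and 0.695 CPM in the same groups. ID1 and ID3, textbook BMP targets like them, were not called in any group, at log2 fold changes from -0.33 (ID1 in M-BSG) to 0.26 (ID1 in BSG).

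The inhibitors on the BMP list did not move one way. TOB1, which dampens SMAD activity, rose by 1.07 in BSG, 0.76 in M-BSG and 0.85 in M-BSG-Hot on the log2 scale (edgeR adjusted p = 1.86e-06, 7.53e-05 and 3.86e-05). SMAD7, an inhibitory SMAD, rose by 0.46 in BSG and 0.49 in M-BSG (adjusted p = 0.00340 in each) and was at 0.25 in M-BSG-Hot (adjusted p = 0.129). BAMBI, a decoy receptor, rose by 0.70 in BSG (adjusted p = 0.00537). SMAD6, the other inhibitory SMAD, was at -0.29 in BSG (adjusted p = 0.106), -0.10 in M-BSG (0.707) and -0.27 in M-BSG-Hot (0.246), with the libraries of each group below all NC libraries and no call. The secreted antagonists NOG, at 0.15 in BSG, 0.03 in M-BSG and 0.15 in M-BSG-Hot, and GREM1, at -0.13, -0.12 and -0.15 in the same groups, were not called. ACVR2B, a receptor, was lower in BSG at -0.57 (adjusted p = 0.0489), a call lost in 11 of 21 alternatives.

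**Figure D4:**
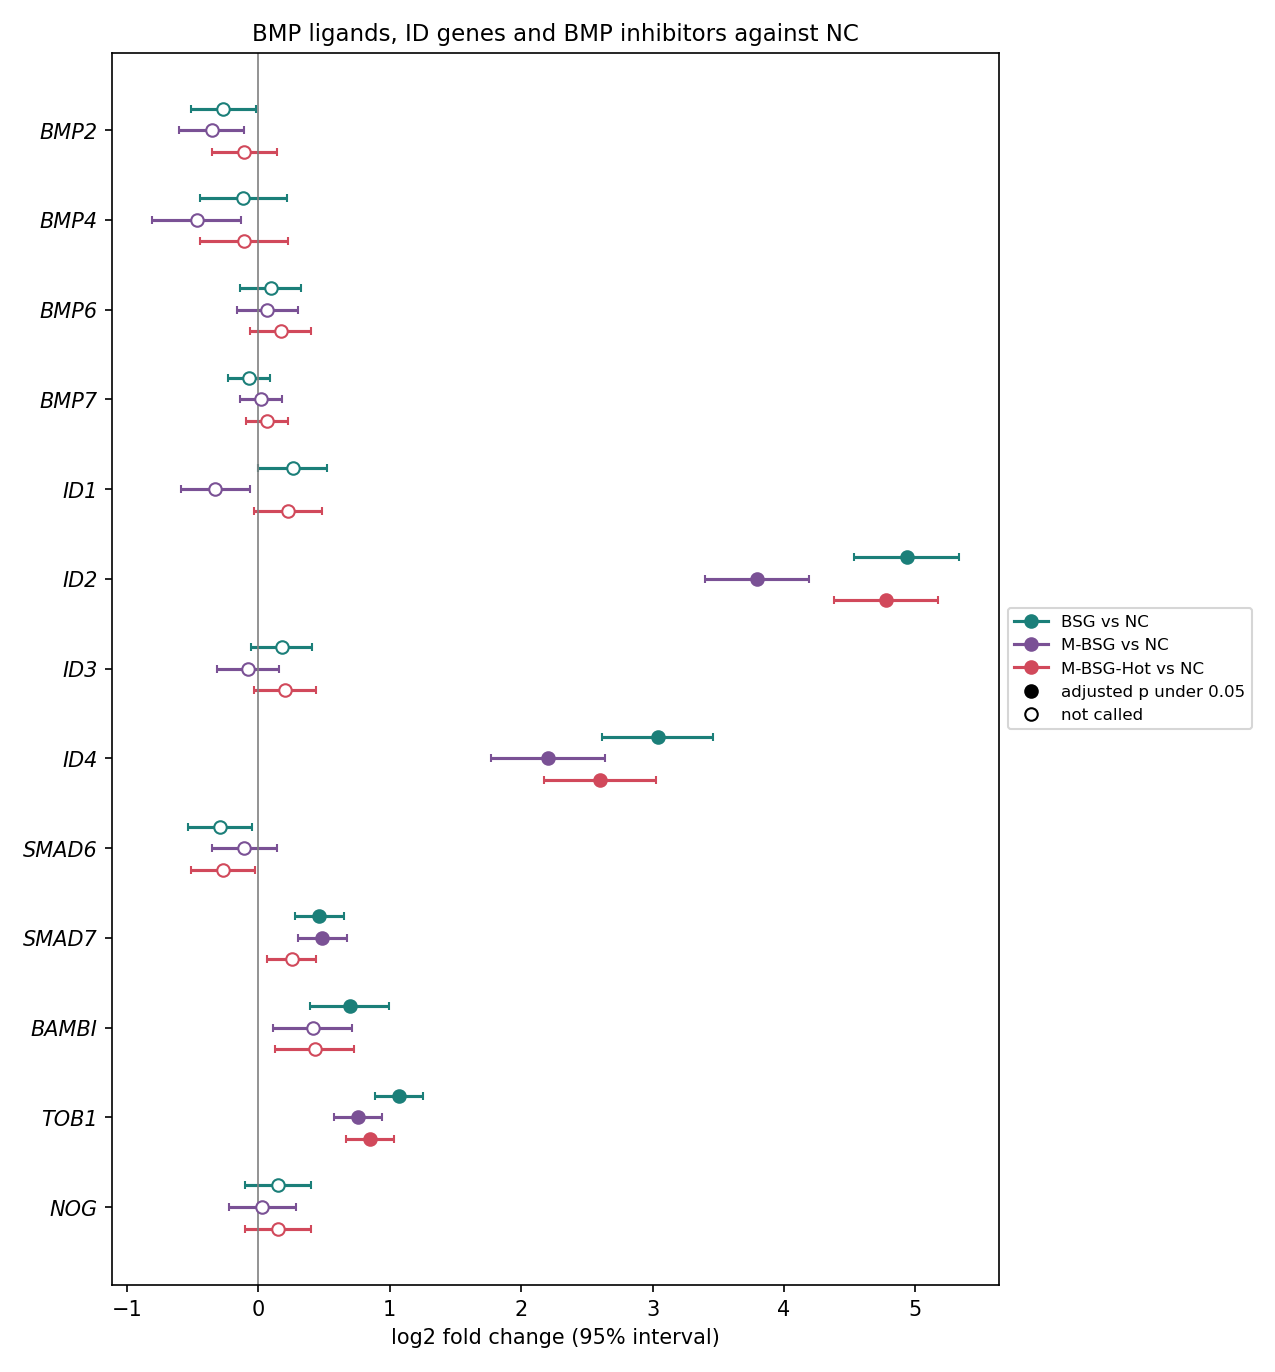
Log2 fold changes against NC with 95% intervals for BMP ligands, ID genes and BMP inhibitors in BSG, M-BSG and M-BSG-Hot; filled points are called by edgeR. The 4 ligands have open points throughout, from 0.17 (BMP6 in M-BSG-Hot) to -0.47 (BMP4 in M-BSG), while ID2, ID4 and TOB1 are filled in all 3 groups.

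ALPL, the phosphatase that marks early osteoblasts, had 2.29, 2.25 and 3.56 CPM in BSG, 3.01, 1.81 and 2.75 CPM in M-BSG, 2.20, 2.68 and 2.31 CPM in M-BSG-Hot, and 2.69, 2.49 and 2.39 CPM in NC. The group means lay between 2.40 and 2.70 CPM, and libraries of all groups overlapped. Its log2 fold changes were 0.10 in BSG (interval -0.39 to 0.58), 0.00 in M-BSG (-0.48 to 0.48) and -0.07 in M-BSG-Hot (-0.56 to 0.41), with edgeR adjusted p of 0.795, 0.999 and 0.905. Its coefficient of variation between libraries was 27.5% in BSG, 25.0% in M-BSG and 10.6% in M-BSG-Hot, against 6.08% in NC.

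SPP1 had 13.3, 11.8 and 11.6 CPM in BSG, 12.8, 13.8 and 11.8 CPM in M-BSG, 13.6, 11.4 and 14.6 CPM in M-BSG-Hot, and 12.1, 11.0 and 9.94 CPM in NC. Its means were 12.3 ± 0.923, 12.8 ± 0.996, 13.2 ± 1.61 and 11.0 ± 1.06 CPM in these groups (SD, n = 3 each), and each treated group overlapped NC. The log2 fold change was 0.16 in BSG (interval -0.10 to 0.41, adjusted p = 0.378), 0.22 in M-BSG (-0.03 to 0.48, adjusted p = 0.351) and 0.26 in M-BSG-Hot (0.01 to 0.52, unadjusted p = 0.0420, adjusted p = 0.271) by edgeR. Over the 12 libraries SPP1 and RUNX2 had a Pearson r of -0.61 and a Spearman rho of -0.50, a description over points that share groups and libraries.

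**Figure D5:**
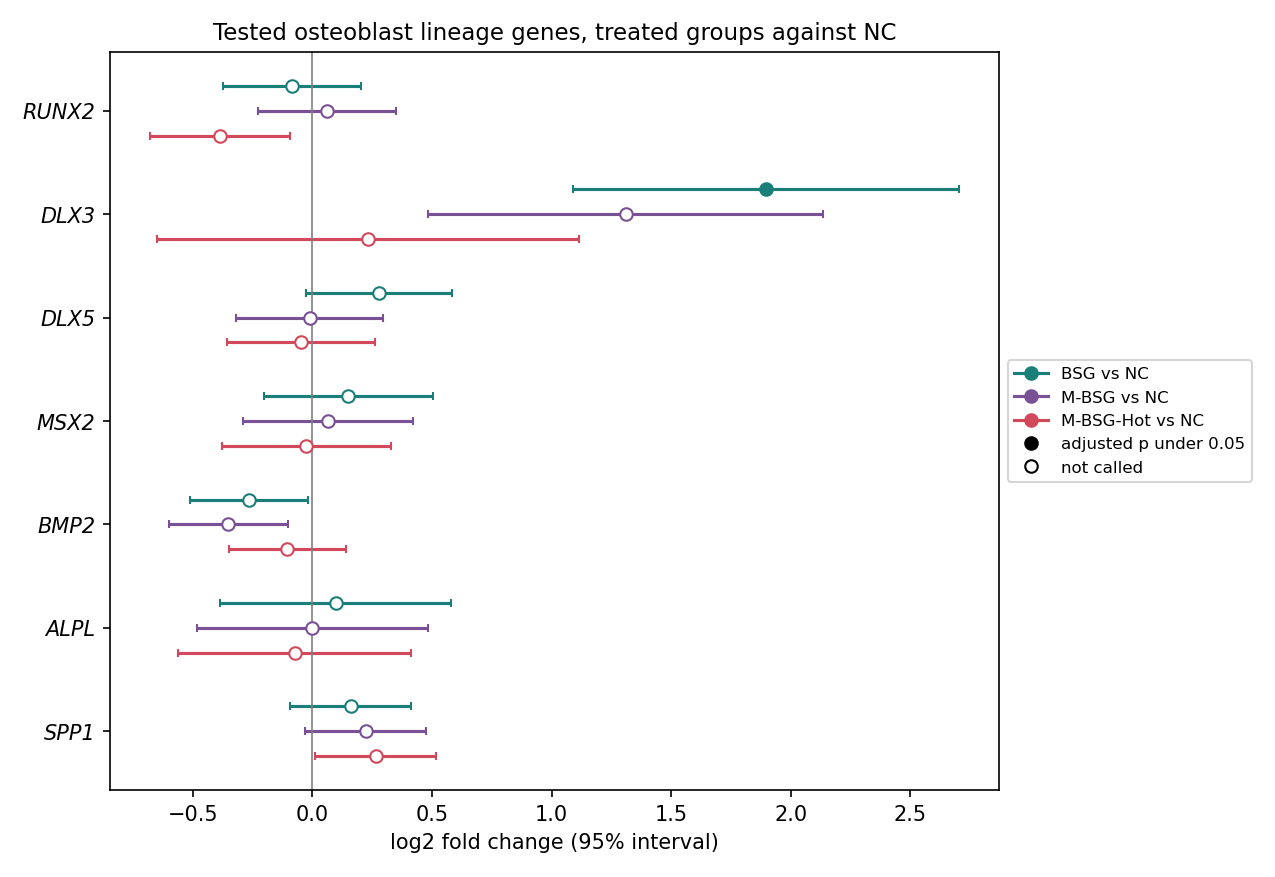
Log2 fold changes against NC with 95% intervals for the 7 tested genes in each treated group; the filled point is called by edgeR. DLX3 in BSG (1.90) is the filled point, and the intervals of the other 6 genes stay between -0.68 and 0.58.

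Counted over the group, 1 of 7 genes was higher (DLX3) and 0 were lower in BSG against NC, with 6 not called. There edgeR called 11.7% of all genes in either direction, so 1 call among 7 genes is near that share. In M-BSG and in M-BSG-Hot against NC 0 of 7 were called by edgeR, where it called 6.35% and 4.91% of all genes. For these 2 comparisons DESeq2 called 1 (DLX3 in M-BSG) and 0, and limma called 0 and 0. In M-BSG against BSG 0 of 7 were called by edgeR, DESeq2 or limma, where edgeR called 0.13% of all genes. In M-BSG-Hot against M-BSG 0 were called by each tool, where edgeR called 0.694% of all genes. In M-BSG-Hot against BSG edgeR and limma called 0 and DESeq2 called 1 (DLX3). Over all genes edgeR called 0.85% there, 15 higher and 116 lower. DESeq2 called more genes in that comparison, 96 higher and 295 lower.

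Groups whose libraries did not overlap are set against the share of all tested genes that did the same. Against NC, DLX3 lay above and BMP2 below in BSG, where 18.1% of genes lay all above and 20.6% all below (38.7% in all). The same genes did so in M-BSG, where 12.4% lay above and 15.1% below (27.5% in all). In M-BSG-Hot RUNX2 lay below and 0 members above, where 14.5% lay below and 13.5% above (28% in all). In M-BSG against BSG DLX3 lay below, where 4.82% lay below and 4.08% above (8.89% in all). In M-BSG-Hot against M-BSG DLX3 and RUNX2 lay below, where 7.5% lay below and 6.28% above (13.8% in all). In M-BSG-Hot against BSG DLX3 and DLX5 lay below, where 8.87% lay below and 7.83% above (16.7% in all). The shares of all genes that edgeR called in either direction were 11.7% in BSG, 6.35% in M-BSG and 4.91% in M-BSG-Hot against NC, and the lower calls in M-BSG-Hot were 0.597% against M-BSG and 0.753% against BSG.

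The matrix and mineral genes around ALPL and SPP1 are read beside the shares of all genes called against NC: BSG had 5.5% higher with 6.22% lower, M-BSG 3.22% higher with 3.13% lower, M-BSG-Hot 1.4% higher with 3.51% lower. Of 20 bone matrix genes listed, 12 were in the tables and 10 were tested, and in BSG 0 were higher and 2 lower: COL5A1, a fibrillar collagen, at -0.39, and LOX, which cross-links collagen, at -0.38. Both calls were lost without BSG 1 or any 1 NC library, and that of COL5A1 also without BSG 3. The LOX call was also lost without BSG 2, M-BSG 3 or M-BSG-Hot 2, and with DESeq2 size factors. In M-BSG and M-BSG-Hot 0 of the 10 were called. The list's median log2 fold change was -0.24 in BSG, -0.12 in M-BSG and 0.02 in M-BSG-Hot. SPARC, the most abundant listed matrix gene in FPKM, was at 340 CPM in BSG and 329 CPM in NC (adjusted p = 0.649). Of 13 tested genes of phosphate handling and mineralisation, 1 was higher in BSG (ANXA5 at 0.29, a call lost in 10 of 21 alternatives), and 0 in M-BSG and M-BSG-Hot.

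The lists of signals around the osteoblast are read beside the same shares. Of 22 tested WNT genes DKK1, a WNT inhibitor, was higher in BSG at 0.32, and FZD4, a WNT receptor, was lower at -0.59 in BSG and -0.64 in M-BSG-Hot. All 3 calls were lost without any 1 NC library, and the BSG calls also without BSG 1. The DKK1 call was also lost with library size only, and the FZD4 call in BSG also without BSG 3. The M-BSG-Hot call was also lost without M-BSG-Hot 2 or M-BSG-Hot 3. With the replicate number as a block 2 WNT genes were lower in BSG. Of 5 tested genes of osteoclast coupling TNFRSF11B (osteoprotegerin, the decoy for RANKL) was higher in M-BSG-Hot, at 35.9 CPM against 27.3 CPM in NC (log2 fold change 0.39, adjusted p = 0.0256; the call was lost without M-BSG-Hot 1, without any 1 NC library and with library size only). Its ligand gene TNFSF11 averaged 0.000739 FPKM over the 12 libraries. Of 11 hormone and growth factor receptors VDR, the vitamin D receptor, was lower in BSG at -0.44 (adjusted p = 0.0293; lost without BSG 1 or any 1 NC library).

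Markers of other cell types were read beside the osteoblast genes. The chondrocyte factor SOX9 was at 170 CPM in BSG, 175 in M-BSG, 208 in M-BSG-Hot and 227 in NC, lower against NC in BSG at -0.42 (adjusted p = 0.00593) and in M-BSG at -0.38 (adjusted p = 0.0161; lost without M-BSG 1, M-BSG 3 or any 1 NC library). COL2A1, the cartilage collagen, was at 0.913 CPM in BSG, 0.254 in M-BSG, 0.244 in M-BSG-Hot and 0.0802 in NC. Its mean reached the 0.269 CPM that the count filter asks in BSG alone, so its values are a description and its NC level is at the detection floor. The 8 chondrocyte markers summed to 40.7 to 45.8 FPKM in BSG and 39.5 to 50.5 in M-BSG. They summed to 48.1 to 58.1 in M-BSG-Hot and 60.2 to 62.3 in NC, and COL10A1 was at 0 in NC. SOX9 alone averaged 49.8 FPKM over the 12 libraries, so the sum is mostly SOX9. The median log2 fold change of the 5 chondrocyte markers tested was -0.00193 in BSG, 0.15 in M-BSG and 0.06 in M-BSG-Hot. Of 4 osteoclast markers OSCAR was lower in M-BSG at -0.82 (adjusted p = 0.0496; lost in 12 of 21 alternatives), and was at -0.68 in BSG (adjusted p = 0.0679) and -0.79 in M-BSG-Hot (adjusted p = 0.0703). The 4 osteoclast markers summed to 11.2 to 14.6 FPKM in BSG and 11.2 to 14.5 in M-BSG. They summed to 7.87 to 15.2 in M-BSG-Hot and 20.2 to 22.8 in NC, so no treated group overlapped NC. OSCAR alone averaged 13.7 FPKM over the 12 libraries, so this sum is mostly OSCAR. The median log2 fold change of the 3 osteoclast markers tested was -0.22 in BSG, 0.10 in M-BSG and 0.04 in M-BSG-Hot. CALCR was at 0 in BSG and M-BSG. None of the 4 adipocyte, 1 skeletal muscle, 2 endothelial and 2 epithelial markers tested was called against NC. Their part in the results above was not tested.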

How the data were processed

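RNA from 143B cells was made into libraries from 1.3 µg of total RNA and, per the labels' protocols, the SMARTER mRNA-Seq chemistry. For each of 12 samples the authors deposited whole counts per gene symbol and FPKM; the deposited FPKM are the same counts divided by a gene length and the library total, within a relative tolerance of 1e-06 for 100% of values above 0. Aligner, counting program, annotation and strand setting: not given in the sources used here. GRCm38 and mm10, both mouse names, are listed in the submitters' processing notes, while the symbols are human (22776 of 24180 matched RefSeq GRCh38.p14 directly), so the build is unresolved and the promoter coordinates are those of RefSeq. In GENCODE 29, RUNX2 overlaps SUPT3H and 2 further genes on the opposite strand, with no shared exon bases; the other genes of the group overlap none.

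Genes were tested with edgeR 4.0.16 (R 4.3.3) on the deposited counts: TMM factors, filterByExpr with a minimum count of 10 (15407 genes kept), and 1 quasi-likelihood model over the 12 libraries with group as its term (common biological coefficient of variation 0.117). Benjamini-Hochberg adjusted p-values under 0.05 over all genes are called. Standard errors are the absolute log2 fold change over the square root of F, and 95% intervals use the moderated degrees of freedom. With 3 libraries a group, an exact permutation test of 1 gene cannot give a p under 0.1, so none is reported. Alternatives used DESeq2 1.42.0, limma 3.58.1, other scalings, filters and sets of libraries. The fits were tested on simulated data, with changes planted in BSG only and in genes averaging at least 1 CPM. DLX3, at 0.822 CPM over the 12 libraries, lies below that level and is not covered by this check. Named genes were all 9 members, up to 4 called genes per list with the smallest adjusted p against NC, and the 3 tested genes of at least 1 CPM most like a called member; HEY1, ALX4, FOSL2, BAMBI, ACVR2B and genes given without a call were added after their values were seen. Not every gene that this rule or the lists name is reported here. The members and lists were chosen with earlier results of these data known.

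Replicate pairs differed by more than sampling noise (chi-square per degree of freedom 3.37 to 60.9). The largest values were those of BSG 1 (60.9 and 44.9), M-BSG 1 (56.2 and 32.8) and the pair of M-BSG-Hot 1 and 3 (40.4). All 12 libraries were kept, and these values are no ground for keeping or dropping any.

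The labels do not say what a replicate number marks. Deviations from the group means of same-numbered libraries correlated above 0.1 in all 3 pairs between BSG and NC (0.358, 0.140 and 0.226). The same held between M-BSG and BSG (0.680, 0.435 and 0.178), where 0.680 joins BSG 1 and M-BSG 1, libraries of high ribosomal protein share. In the other 4 comparisons at least 1 pair was below 0.1, in M-BSG against NC narrowly (0.361, 0.152 and 0.0920). Whether the numbers mark paired cultures was not tested. The block was fitted over all 12 libraries.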

Additional observations from a re-analysis of the deposited data

How the results depend on the processing

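The count of osteoblast lineage genes called higher in BSG against NC was 1 in every alternative but the strict filter (at least 10 counts in every library), which removed DLX3 from the test and gave 0; it also gave 0 in place of 1 for any difference among the 4 groups. In M-BSG against NC the count higher was 1 by DESeq2 and ranged from 0 to 1 over the fits without 1 library, and the count lower was 1 with library size only. In M-BSG-Hot against BSG the count lower was 1 by DESeq2, with no filter and without the 3 libraries of highest ribosomal protein share. Other counts stayed at 0. No called value turned its direction.

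All same-numbered pairs correlated above 0.1 in BSG against NC and in M-BSG against BSG, and not all in the other 4 comparisons. Of the 12 libraries 7 correlated best with their own number, so pairing by number is not established. With a replicate block the DLX3 fold change in BSG was 1.90 (adjusted p = 0.00973), 1 gene of the group was called higher in BSG as without it, and no other call on the group changed. Over all genes the block gave 1017 higher and 1083 lower in BSG against NC, and 2 higher and 21 lower in M-BSG against BSG. Over all genes the calls higher and lower ranged from 424 to 1469 and 429 to 1438 in BSG against NC (847 and 959 as reported), from 295 to 1047 and 248 to 925 in M-BSG (496 and 483), and from 103 to 451 and 285 to 862 in M-BSG-Hot (215 and 541). In M-BSG against BSG they ranged from 0 to 73 and 3 to 38 (0 and 20), in M-BSG-Hot against M-BSG from 3 to 47 and 7 to 246 (15 and 92), and in M-BSG-Hot against BSG from 1 to 96 and 49 to 295 (15 and 116). With library size only the share of calls that were higher was 29.9% in BSG (46.9% as reported), 37.7% in M-BSG (50.7%) and 18.1% in M-BSG-Hot (28.4%). Applied to the listed genes after seeing the data, the alternatives ended 22 of 42 calls in at least 1 setting, and 20 held in all. The 20 include COL2A1 in BSG, whose mean reached the level of the count filter in BSG alone, so that call is not read as a result. Depth limits SP7, BGLAP and DLX3.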
